A study of Mus musculus with 9 samples.

Results

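The results concern 10 genes for subunits of the SWI/SNF chromatin remodelling complex, also called the BAF complex, in mouse muscle satellite cells, the stem cells that repair adult muscle fibres. The genes were taken by name, with earlier results of these data known: the 2 ATPase genes Smarca2 and Smarca4, the core genes Smarcb1, Smarcc1 and Smarcc2, the Baf60 genes Smarcd1, Smarcd2 and Smarcd3, and Arid1a and Arid1b. All 10 were found among the 45706 genes of the table, and all 10 passed the filter on low values. RNA was sequenced from satellite cells of C57Bl6 mice aged 12 to 20 weeks at 3 stages. The cells were freshly isolated from muscle; or proliferating, kept for at least 3 days in growth medium (20% FCS, with FGF-2 at 2.5 ng/ml); or myotubes, kept for a further 6 days in 2% horse serum. The labels name no transgene or engineered allele in any group. Each stage had 3 samples from different animals, and the cultured stages are cells in a dish and not muscle tissue.

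SWI/SNF complexes use ATP to slide or evict nucleosomes, which opens or closes DNA for transcription factors. Each complex holds 1 ATPase, either BRG1 (Smarca4) or BRM (Smarca2), and 1 of 3 alternative BAF60 proteins. Core subunits of the canonical form include BAF155 (Smarcc1), BAF170 (Smarcc2) and BAF47 (Smarcb1). In muscle, BAF60C (Smarcd3) is known as the variant that joins the myogenic factor MyoD and helps to recruit the complex to muscle genes. ARID1A and ARID1B are alternative DNA-binding subunits that mark the canonical BAF form of the complex.

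Promoter sequence is shown for the 2 ATPase genes, which took separate courses across the stages, and for Smarcd3, the Baf60 gene tied to MyoD, because MyoD binds E-boxes. All 10 genes matched the RefSeq promoter table (GRCm38.p6), with 11 start sites in all. Only bases before the annotated start that lie outside annotated exons are printed, 5′ to 3′ on the strand of the gene, with capitals for an E-box (CANNTG, which reads the same on both strands). The Smarca2 stretch is chr19:26604910-26605049 and the Smarca4 stretch is chr9:21615919-21616168, both on the plus strand. The Smarcd3 stretch is chr5:24602013-24602252 on the minus strand. This Smarcd3 stretch lies inside the GENCODE span of the gene (chr5:24590818-24624411), which extends further upstream of the RefSeq start used.
Smarca2: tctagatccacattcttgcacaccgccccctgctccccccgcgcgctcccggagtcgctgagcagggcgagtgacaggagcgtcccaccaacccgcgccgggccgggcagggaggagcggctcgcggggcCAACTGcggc
Smarca4: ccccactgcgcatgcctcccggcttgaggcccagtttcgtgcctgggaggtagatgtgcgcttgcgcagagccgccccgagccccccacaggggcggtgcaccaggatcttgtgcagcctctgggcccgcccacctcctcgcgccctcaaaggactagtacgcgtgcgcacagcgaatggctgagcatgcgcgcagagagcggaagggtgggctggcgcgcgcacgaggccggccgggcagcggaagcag
Smarcd3: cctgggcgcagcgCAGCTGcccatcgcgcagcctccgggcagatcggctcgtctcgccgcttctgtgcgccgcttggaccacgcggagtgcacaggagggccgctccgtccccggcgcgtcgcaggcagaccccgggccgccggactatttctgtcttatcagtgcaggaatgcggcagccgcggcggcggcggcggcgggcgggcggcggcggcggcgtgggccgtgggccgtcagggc

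The E-box CAACTG of Smarca2 began at position -120 from the RefSeq start, and CAGCTG of Smarcd3 at position -237. The 250 bases before the Smarca4 start held no such match. Of the 11 windows of 250 bases for the 10 genes, 3 held an E-box, those of Smarca2, Smarcd2 and Smarcd3, against 66.2% of 32544 RefSeq windows of that length. An AP-1 match (TGANTCA, the same on both strands) lay in 1 of the 11 windows, that of Smarcb1, against 6.7% of all windows. A CCAAT box on either strand lay in 0 of the 11 windows, against 33.8%. These are matches of letters and not bound sites.

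The values are gene read counts after scaling and rounding by the authors, called normalized read counts here. The spacing of low values put the reads behind them at 12.0 to 19.4 M in freshly isolated, 20.4 to 24.3 M in proliferating and 22.0 to 22.8 M in myotube libraries. Stage landmarks followed the labels: the satellite cell factor Pax7 was at 11694 to 15700 in freshly isolated libraries and at most 3330 in the others, and embryonic myosin Myh3 was at 296158 to 335321 in myotubes. The cell division marker Mki67 was at 66 to 471, 22495 to 25457 and 7550 to 13203 in the 3 stages in that order. A pair of libraries stood apart from their stage. Freshly isolated replicate 1 had the fewest reads (12.0 M) and 22.2% of its value in the non-coding gene Gm26917, against 10.6% and 11.2% in its replicates. Proliferating replicate 1 was low in muscle genes, with Myh3 at 3055 against 23038 and 15385. Many markers of other cells were low, but not all. Of 7 endothelial markers 4 passed the filter, and their list summed to 127 to 250, 91 to 126 and 105 to 142, with Emcn at 0 in both cultured stages. The 4 took different courses. Pecam1 was at 59 to 155, 26 to 41 and 8 to 15, and Cdh5 at 17 to 50, 1 to 2 and 0 to 3. Kdr was at 18 to 22, 16 to 52 and 3 to 5, and Vwf at 21 to 41, 28 to 46 and 85 to 114. Of 7 leukocyte markers 3 passed, with sums of 662 to 694, 67 to 89 and 246 to 260. Cd68 was at 549 to 629 in freshly isolated libraries and Itgam at 213 to 229 in myotubes. Adgre1 was at 0 in freshly isolated and proliferating libraries. Of 7 fibro-adipogenic markers 5 passed, with sums of 2984 to 4522, 25 to 37 and 27 to 36. Dpt, at 2449 to 3554, and Dcn, at 405 to 1006, made up most of the freshly isolated sums. Cxcl14 was at 0 in both cultured stages, and Dpt and Lum in proliferating libraries. Of 7 pericyte or smooth muscle markers 7 passed, with sums of 2980 to 4231, 8655 to 20085 and 62656 to 63599, most of it Acta2. Of 7 Schwann or neural markers 6 passed, with sums of 7866 to 10039, 509 to 657 and 276 to 398, most of it Map2. These lists and Mki67 moved between the same stages as the genes below, and their part in those differences was not tested. In bulk RNA, fewer cells of a type and less RNA per cell cannot be told apart.

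The 2 ATPase genes took separate courses. Smarca2 was high in freshly isolated cells and low in both cultured stages, while Smarca4 was highest in proliferating cells and at similar levels before and after. Smarca2 (GRCm38, chr19:26605050-26778322, plus strand) had normalized read counts of 11234, 8165 and 8391 in freshly isolated replicates 1, 2 and 3. In proliferating libraries it was at 418, 405 and 337, and in myotubes at 444, 480 and 565. The freshly isolated libraries were far above all 6 cultured ones, of which none was above 565. In limma's fit over all genes Smarca2 fell 23.7-fold from freshly isolated to proliferating cells (log2 change -4.57 ± 0.15 (SE), n = 3 per stage, Benjamini-Hochberg adjusted p = 3.56e-09). That change was larger in size than those of 93.4% of the genes tested. From freshly isolated cells to myotubes Smarca2 was 18.5-fold lower (-4.21 ± 0.15, adjusted p = 5.09e-09). The 3 myotube values lay above the 3 proliferating ones without overlap, but the log2 difference of 0.36 ± 0.15 (95% interval 0.03 to 0.69) did not pass the threshold over all genes (adjusted p = 0.0655). It passed without freshly isolated replicate 1, which shares the estimate of the spread (0.36, adjusted p = 0.0166). With libraries scaled to equal totals it was 0.08 (adjusted p = 0.626). Here and below, equal totals are those left without Gm26917, the most abundant gene.

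Smarca4 (chr9:21616169-21704230, plus strand) was at 5811, 4051 and 4211 in freshly isolated libraries, at 12516, 13025 and 11938 in proliferating ones, and at 4541, 4918 and 4115 in myotubes. Each proliferating library held more than 2 times as much as any other library. Smarca4 rose 2.7-fold from freshly isolated to proliferating cells (log2 change 1.43 ± 0.14, adjusted p = 5.05e-06) and fell 2.77-fold from proliferating cells to myotubes (-1.47 ± 0.14, adjusted p = 1.15e-05). Myotubes and freshly isolated cells overlapped, with a difference of -0.04 ± 0.14 and a 95% interval of -0.34 to 0.27 (adjusted p = 0.816). Without freshly isolated replicate 1 that difference was 0.13 (adjusted p = 0.206).

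**Figure D1:**
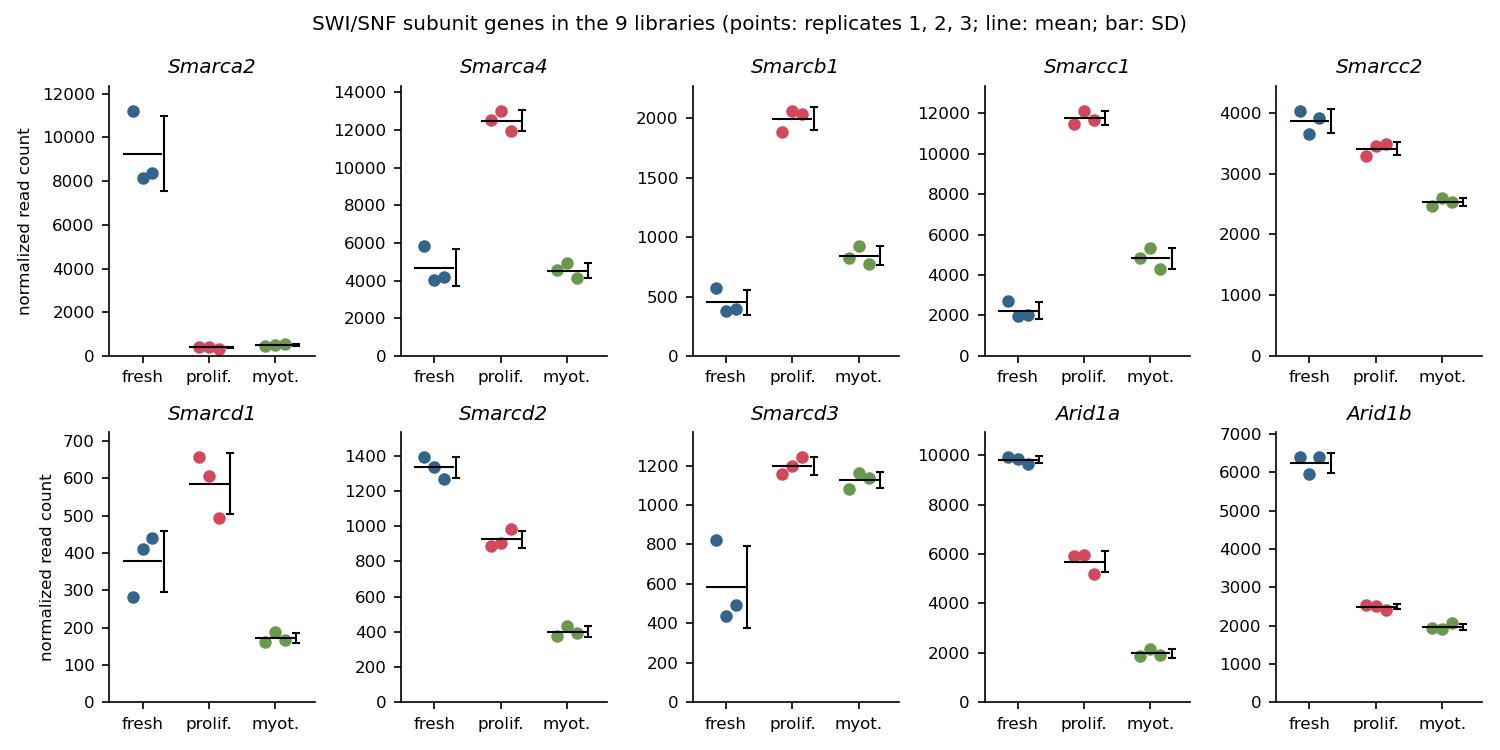
Normalized read count (y axes from 0, each with its own scale) of the 10 SWI/SNF subunit genes in the freshly isolated (fresh), proliferating (prolif.) and myotube (myot.) libraries. Points are replicates 1, 2 and 3 from left to right, lines are means and bars are 1 SD of 3 libraries; Smarca2 lies at 8165 to 11234 in freshly isolated libraries and at or below 565 in the others, and Smarca4 is highest in proliferating libraries.

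Among the core genes, Smarcb1 and Smarcc1 rose together with Smarca4 on entry into proliferation and fell again in myotubes, whereas Smarcc2 differed least between stages. Smarcb1 (chr10:75896769-75921617, minus strand), whose product BAF47 contacts the nucleosome's acidic patch, was at 573, 382 and 399 in freshly isolated libraries. It was at 1887, 2067 and 2036 in proliferating libraries and at 825, 930 and 773 in myotubes, so that the 3 stages did not overlap. The rise was 4.49-fold (log2 change 2.17 ± 0.15, adjusted p = 5.74e-07) and the fall into myotubes 2.37-fold (-1.25 ± 0.15, adjusted p = 6.8e-05). Myotubes remained 1.89-fold above freshly isolated cells (0.92 ± 0.15, adjusted p = 0.000261).

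Smarcc1 (chr9:110117708-110240178, plus strand), which encodes the scaffold protein BAF155, was at 2719, 1953 and 2025 in freshly isolated libraries. It was at 11486, 12139 and 11687 in proliferating libraries and at 4826, 5354 and 4320 in myotubes, again without overlap between stages. It rose 5.33-fold (log2 change 2.41 ± 0.13, adjusted p = 9.61e-08), the largest rise among the 10 genes in that comparison. It then fell 2.44-fold into myotubes (-1.29 ± 0.13, adjusted p = 2.11e-05) and stayed 2.18-fold above freshly isolated cells (1.12 ± 0.13, adjusted p = 2e-05). Exons of Dhx30 on the opposite strand cover 1.57% of the Smarcc1 exon length.

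Smarcc2 (chr10:128459248-128490482, plus strand), which encodes the related scaffold BAF170, was the least variable of the 10 genes across the stages. Its values were 4037, 3653 and 3913 in freshly isolated libraries, 3295, 3448 and 3488 in proliferating ones, and 2460, 2603 and 2535 in myotubes. The stages did not overlap, and each was below the one before. The first step was -0.18 ± 0.08 on the log2 scale (95% interval -0.35 to -0.01) and did not pass the threshold (adjusted p = 0.0518); the sign turned to 0.04 with equal totals and 0.01 with quantile normalization. Smarcc2 fell 1.35-fold from proliferating cells to myotubes (-0.43 ± 0.08, adjusted p = 0.000805) and 1.53-fold from freshly isolated cells to myotubes (-0.61 ± 0.08, adjusted p = 3.22e-05).

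The 3 Baf60 genes each had a course of their own. Smarcd1 was highest in proliferating cells and lowest in myotubes, Smarcd2 fell at each step, and Smarcd3 was low in freshly isolated cells and higher in both cultured stages. Smarcd1 (BAF60A; chr15:99702129-99713991, plus strand) was at 283, 410 and 439 in freshly isolated libraries, at 657, 606 and 495 in proliferating ones, and at 162, 189 and 166 in myotubes. No libraries of different stages overlapped, with the lowest proliferating value at 495 and the highest freshly isolated one at 439. The rise was 1.57-fold (log2 change 0.65 ± 0.19, adjusted p = 0.00921), and it did not pass with quantile normalization (0.31, adjusted p = 0.161). The fall into myotubes was 3.37-fold (-1.75 ± 0.19, adjusted p = 2.71e-05), the largest fall of the 10 genes in that comparison. Myotubes were 2.15-fold below freshly isolated cells (-1.1 ± 0.19, adjusted p = 0.000297). Exons of the gene models Gm17349 and Gm34939 on the opposite strand cover 7.13% and 5.56% of the Smarcd1 exon length; Gm17349 averaged at most 6.33 in any stage.

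Smarcd2 (BAF60B; chr11:106263179-106272972, minus strand) was at 1392, 1338 and 1270 in freshly isolated libraries, at 889, 904 and 981 in proliferating ones, and at 374, 436 and 396 in myotubes. The values stepped down without overlap. Smarcd2 fell 1.44-fold on entry into culture (log2 change -0.53 ± 0.1, adjusted p = 0.000654) and 2.3-fold from proliferating cells to myotubes (-1.2 ± 0.1, adjusted p = 5.58e-06). The whole fall from freshly isolated cells to myotubes was 3.32-fold (-1.73 ± 0.1, adjusted p = 9.47e-08).

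Smarcd3 (BAF60C; chr5:24590818-24624411, minus strand) was at 821, 437 and 492 in freshly isolated libraries, at 1155, 1196 and 1243 in proliferating ones, and at 1081, 1160 and 1137 in myotubes. Replicate 1 was well above the other freshly isolated libraries and still below all cultured ones. Smarcd3 rose 2.13-fold into proliferation (log2 change 1.09 ± 0.2, adjusted p = 0.000517) and was 2-fold higher in myotubes than in freshly isolated cells (1 ± 0.2, adjusted p = 0.000816). Without freshly isolated replicate 1 these changes were 1.37 and 1.28. Between proliferating cells and myotubes the libraries overlapped, and the difference of -0.09 ± 0.2 had a 95% interval of -0.52 to 0.35 (adjusted p = 0.725). Exons of Chpf2 on the opposite strand cover 48.2% of the Smarcd3 exon length. Of the 2466 shared bases, 642 lie in exons of protein-coding Smarcd3 transcripts. Chpf2 averaged 154, 338 and 136 in the 3 stages, and the rule by which reads in the shared stretch were assigned is not known.

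The ARID genes were highest in freshly isolated cells. Arid1a (chr4:133679008-133756769, minus strand) was at 9922, 9858 and 9659 there, at 5918, 5946 and 5200 in proliferating libraries, and at 1871, 2176 and 1898 in myotubes. It fell at both steps without overlap, 1.73-fold (log2 change -0.79 ± 0.09, adjusted p = 2.04e-05) and then 2.87-fold (-1.52 ± 0.09, adjusted p = 1.27e-06). From freshly isolated cells to myotubes the fall was 4.96-fold (-2.31 ± 0.09, adjusted p = 8.68e-09).

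Arid1b (chr17:4994332-5347656, plus strand) was at 6403, 5951 and 6401 in freshly isolated libraries, at 2535, 2522 and 2419 in proliferating ones, and at 1939, 1922 and 2067 in myotubes. Most of its fall lay in the first step. That step was 2.51-fold (log2 change -1.33 ± 0.08, adjusted p = 1.31e-07) and the next 1.26-fold (-0.34 ± 0.08, adjusted p = 0.00357). Over both steps Arid1b fell 3.16-fold (-1.66 ± 0.08, adjusted p = 2.17e-08).

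In counts, 5 of the 10 genes rose from freshly isolated to proliferating cells (Smarca4, Smarcb1, Smarcc1, Smarcd1 and Smarcd3), 4 fell (Smarca2, Smarcd2, Arid1a and Arid1b) and 1 did not pass. Among the 17291 genes tested 37.6% rose and 35.7% fell in that comparison, so these shares were near the background. The median log2 change of the 10 was 0.23, against 0.07 for all genes, and their median size of change 1.21, against 1.28. From proliferating cells to myotubes 0 of the 10 rose, 8 fell and 2 did not pass, beside 28.6% and 25.5% of all genes that rose and fell. At an unadjusted p under 0.05 in limma 1 gene was higher in myotubes, Smarca2. The median log2 change there was -1.22, against 0.04 for all genes. From freshly isolated cells to myotubes 3 rose, 6 fell and 1 did not pass, beside 40.2% and 37.3% of all genes. The median log2 change was -0.86, against 0.1.

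**Figure D2:**
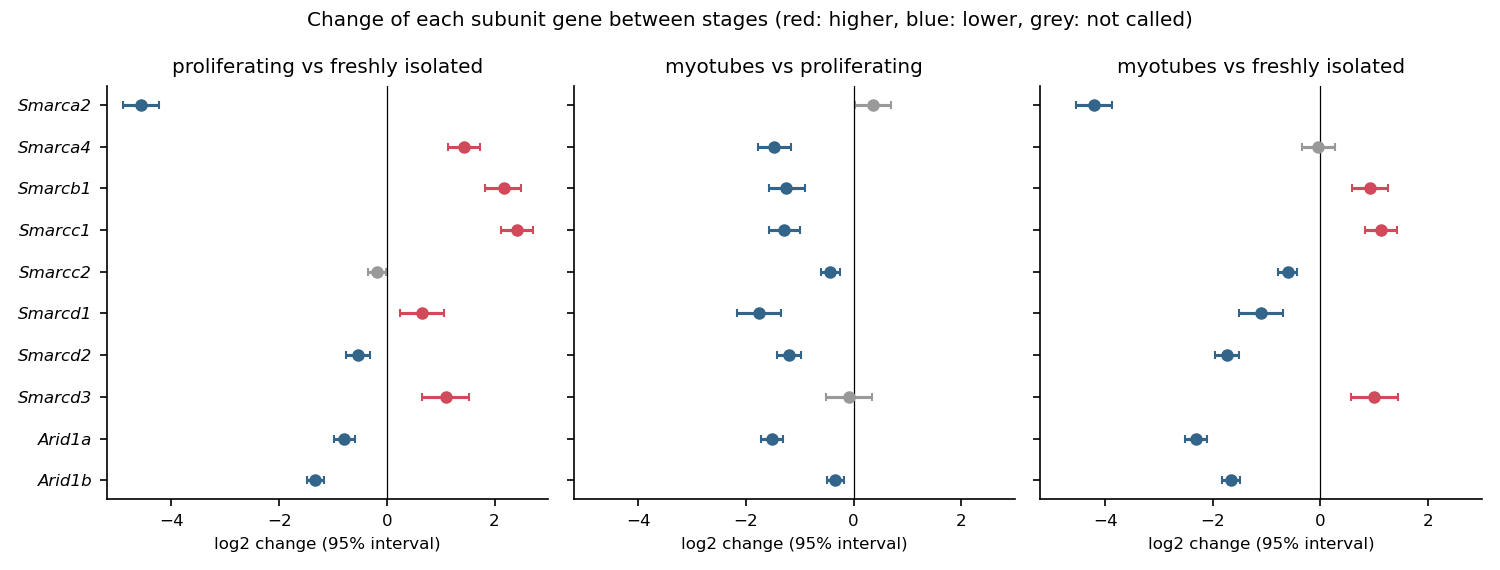
Log2 change of each of the 10 genes in the 3 comparisons (x axes), with 95% intervals from limma's fit of 9 libraries; red is higher, blue lower and grey not called at an adjusted p of 0.05. The 8 genes called from proliferating cells to myotubes all lie to the left of 0, and Smarca2 lies at -4.57 and -4.21 against freshly isolated cells.

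The 3 freshly isolated libraries differed among themselves more than those of the other stages in Smarca2, Smarca4, Smarcb1, Smarcc1, Smarcc2, Smarcd1 and Smarcd3, by the ratio of the highest to the lowest value. For Smarcd3 the highest was 1.88 times the lowest, against 1.08 in proliferating cells and 1.07 in myotubes. Freshly isolated replicate 1 held the highest value of its stage for 9 of the 10 genes and the lowest for 1, Smarcd1. Among all genes tested it was highest for 39.7% and lowest for 41.9%. Freshly isolated replicate 2 was highest for 0 of the 10 and lowest for 7, against 30.9% and 28.7% of all genes. Myotube libraries were also uneven. Replicate 2 there was highest for 8 and lowest for 1 (all genes 34.4% and 38.1%), and replicate 1 for 0 and 6 (24.0% and 26.8%). Proliferating replicate 1, low in muscle genes, was highest for 3 and lowest for 5, the same counts as proliferating replicate 3. Among all genes tested replicate 1 was lowest for 35.3%. Whether it stood apart in these genes was not tested. In proliferating libraries the highest value of any of the 10 genes was at most 1.33 times the lowest, against 7.54 times for Myh3. Myh3 is a single muscle gene, and this ratio was not compared with that of all genes.

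Levels were set side by side between genes only per kilobase of annotated exon. Per kilobase, freshly isolated cells held Arid1a at 855.1 ± 11.9 (SD, n = 3), Smarca4 at 724.5 ± 150.4, Smarcc2 at 696.6 ± 35.3 and Smarca2 at 649.2 ± 119.9, and neighbours in that order overlapped. Arid1b at 496.2, Smarcd2 at 371.5 and Smarcc1 at 285.1 followed without overlap. Smarcd3 at 114.0, Smarcd1 at 93.7 and Smarcb1 at 56.9 were lowest, with overlap between neighbours. In proliferating cells Smarca4 at 1929.4 ± 84.0 and Smarcc1 at 1502.9 ± 42.7 stood above the rest, followed by Smarcc2 at 614.2 and Arid1a at 495.6. Smarcd2 at 257.6, Smarcb1 at 251.8 and Smarcd3 at 234.0 overlapped with their neighbours. Arid1b at 197.8, Smarcd1 at 145.6 and Smarca2 at 27.1 closed the order without overlap. In myotubes Smarca4 at 698.8 (635.5 to 759.5) and Smarcc1 at 617.1 (551.6 to 683.6) overlapped at the top, and Smarcc2 at 456.2 and Smarcd3 at 219.9 came next. Arid1a at 172.7 and Arid1b at 156.8 overlapped, as did Smarcd2 at 112.0 and Smarcb1 at 106.3. Smarcd1 at 42.8 and Smarca2 at 34.8 were lowest.

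The order depends on the gene model. The union of exons is 14.269 kb for Smarca2, 7.93 kb for Smarcb1 and 5.12 kb for Smarcd3, while their longest coding transcripts are 5.921, 1.66 and 1.735 kb. With the coding transcript as the length, Smarca2 at 1564.5 came first in freshly isolated cells, ahead of Arid1a at 1198.6. In proliferating cells Smarcc1 (2038.9) and Smarca4 (1959.4) led, followed by Smarcb1 (1202.8), and Smarca2 was last (65.3). In myotubes Smarcc1 (837.2), Smarca4 (709.6) and Smarcd3 (649.0) came first and Smarcd1 (52.1) last.

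**Figure D3:**
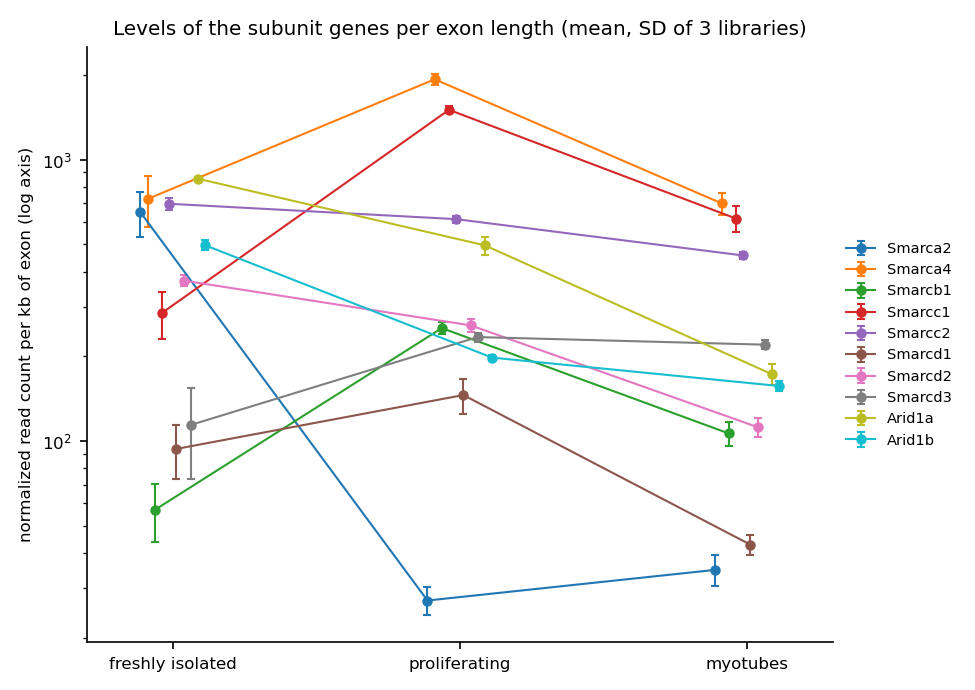
Normalized read count per kilobase of annotated exon (log axis) of the 10 genes at the 3 stages; points are means and bars 1 SD of 3 libraries, and points are shifted sideways so that they can be told apart. Smarca2 drops from 649.2 to 27.1 between freshly isolated and proliferating cells, while Smarca4 and Smarcc1 are the highest in proliferating cells.

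The share of each gene in its set of related subunit genes was described per kilobase of exon. The share of Smarca2 in the sum of both ATPase genes was 47.3% ± 0.54 (SD, n = 3) in freshly isolated cells, 1.38% ± 0.12 in proliferating cells and 4.79% ± 0.94 in myotubes. The summed ATPase level was 1373.7, 1956.5 and 733.5 per kilobase. With the longest coding transcript as the length, the Smarca2 share was 68.1%, 3.22% and 10.6%. Which ATPase gene led in freshly isolated cells therefore turned with the length used, while the order of the stages was the same.

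BAF155 and BAF170 are related scaffold proteins that can sit in the same complex, so their ratio is not that of a choice at 1 place. The share of Smarcc2 in the sum of Smarcc1 and Smarcc2 was 71.1% ± 3.0 in freshly isolated cells, 29.0% ± 0.54 in proliferating cells and 42.6% ± 2.4 in myotubes. Smarcc1 was thus the lesser of the pair in each freshly isolated library and the greater in each cultured one. For the ARID pair the share of Arid1b was 36.7% ± 1.11, 28.6% ± 1.04 and 47.7% ± 2.73, and Arid1a was ahead in all 9 libraries. By coding length, however, Arid1b held 50.8% and 52.0% in myotube replicates 1 and 3, and with no length correction 50.9% and 52.1%, so the leader in those libraries turned with the length used. The summed ARID level was 1351.3, 693.4 and 329.5 per kilobase.

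Among the Baf60 genes Smarcd2 held 64.2% ± 2.08 of the sum in freshly isolated cells, 40.4% ± 2.05 in proliferating cells and 29.9% ± 0.78 in myotubes. The share of Smarcd3 was 19.5% ± 5.69, 36.7% ± 1.28 and 58.7% ± 1.18 at the same stages. Its exon length includes the stretch shared with Chpf2. Smarcd1 made up 16.4% ± 4.37, 22.9% ± 3.28 and 11.4% ± 0.43 of the sum. Smarcd3 had the largest share in each myotube library although its level there did not pass the test against proliferating cells: the summed Baf60 level was 637.2 ± 1.7 per kilobase in proliferating cells and 374.7 ± 19.8 in myotubes, and Smarcd1 and Smarcd2 fell between them. With the longest coding transcript as the length the share of Smarcd3 was 35.3%, 57.3% and 76.6%, so that it led in proliferating cells as well.

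**Figure D4:**
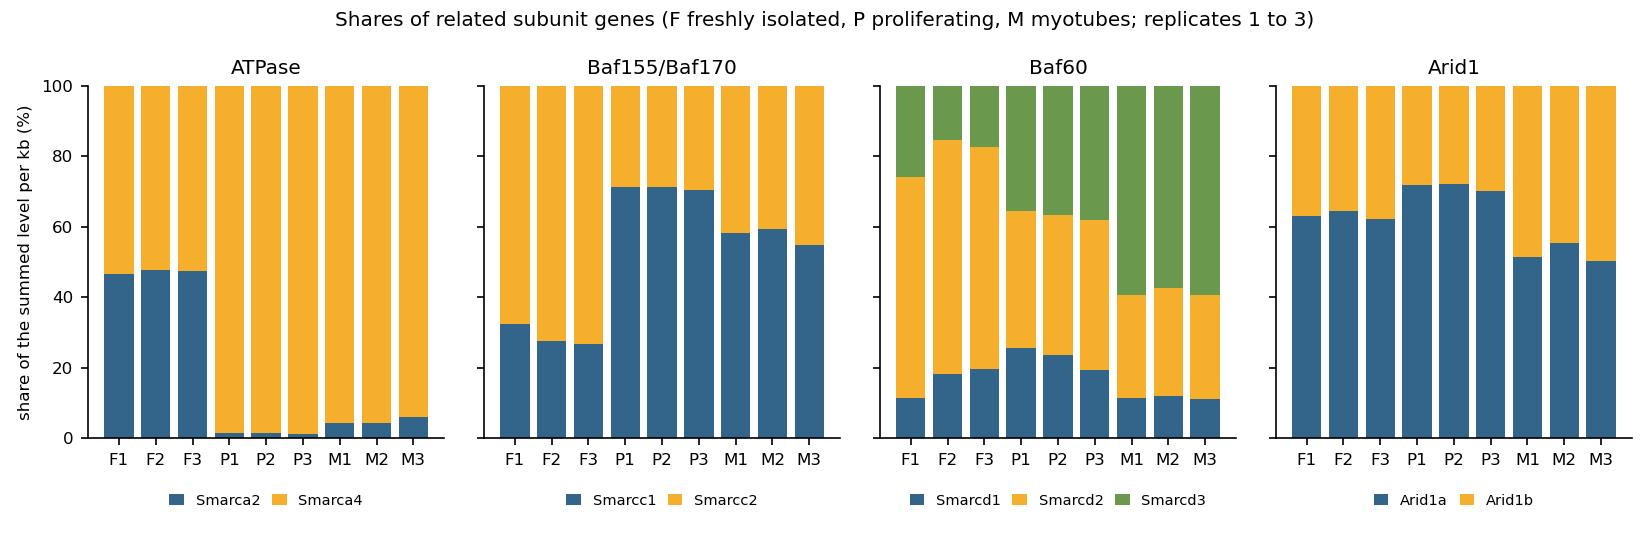
Share (percent, y axis) of each gene in the summed level per kilobase of exon of its set of related subunits, in each of the 9 libraries (F freshly isolated, P proliferating, M myotubes). The Smarca2 share averages 47.3% in F1 to F3 and is a thin strip in the other libraries, and the Smarcd3 share is largest in M1 to M3.

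The genes with the courses most like those of the Baf60 genes were found by the root mean square difference of centred log2 values over the 9 libraries, among 10066 genes. For Smarcd1 they were Snhg4, a host gene of small nucleolar RNAs (difference 0.105), Raver1 (0.136) and Mfsd10 (0.173). For Smarcd2 they were Tmem131 (0.094), Ubr4 (0.095), and Trmt1, a tRNA methyltransferase (0.096). For Smarcd3 they were Eif2d, a translation factor (0.077), Lman2, a lectin of the secretory pathway (0.088), and Heatr3 (0.093). The 9 libraries are 3 replicates of 3 stages, so this likeness is mainly over 3 conditions. Eif2d averaged 292, 554.7 and 563 in the 3 stages, beside 583, 1198 and 1126 for Smarcd3.

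Of 21 other SWI/SNF subunit genes in the table, 18 passed the filter. From freshly isolated to proliferating cells 10 of them rose, 4 fell and 4 did not pass, beside 37.6% and 35.7% of all genes that rose and fell, with a median log2 change of 0.55. Into myotubes 2 rose, 8 fell and 8 did not pass (median -0.18), beside 28.6% and 25.5% of all genes. From freshly isolated cells to myotubes 9 rose, 5 fell and 4 did not pass (median 0.38), beside 40.2% and 37.3%. Smarce1, which encodes the core subunit BAF57, was at 740 to 891, 2116 to 2328 and 2321 to 2590 in the 3 stages. It rose 2.73-fold (log2 change 1.45 ± 0.09, adjusted p = 3.51e-07) and did not pass for a change into myotubes (0.15 ± 0.09, adjusted p = 0.203; -0.13 with equal totals). Actl6a, for the actin-related subunit BAF53A, was at 477 to 678, 1829 to 2062 and 1123 to 1277, a rise of 3.42-fold and a fall of 1.65-fold. Its paralog Actl6b, known from neurons, was at 0 to 5 in all libraries. Actb, beta-actin, which is both a subunit and a main protein of the cytoskeleton, rose 4.16-fold and fell 3.23-fold.

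Subunits of other SWI/SNF forms differed from each other. Pbrm1, of the PBAF form, was at 2501 to 3401, 7194 to 7882 and 4152 to 5010, and rose 2.57-fold (adjusted p = 3.29e-06) before it fell 1.68-fold (adjusted p = 0.000456). Arid2, the ARID subunit of PBAF, fell at both steps, by 0.58 and 0.81 on the log2 scale (the first step lost its call with equal totals, at -0.36 and adjusted p = 0.081), from 3830 to 5572 in freshly isolated libraries to 1643 to 2042 in myotubes. Brd7, also of PBAF, was at 1152 to 1479, 1796 to 1985 and 2915 to 3078. It rose at both steps, 1.48-fold and 1.56-fold (adjusted p = 0.000536 and 0.000401). Brd9, of the non-canonical form, was at 819 to 888, 951 to 1030 and 1084 to 1152; its first step was 1.16-fold (adjusted p = 0.0378) and lost its call under 10 of 20 alternatives (adjusted p up to 0.845), and its second did not pass (0.16 ± 0.08, adjusted p = 0.125; -0.12 with equal totals). Gltscr1l, of the same form, fell 3.85-fold on entry into culture, from 974 to 1201 to between 269 and 319. Bcl7a, a small accessory subunit, rose 1.7-fold and then fell 2.68-fold, and its relative Bcl7b rose 1.88-fold. Dpf1 and Ss18 fell 2.48-fold and 1.68-fold from proliferating cells to myotubes.

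Of 27 genes for other ATP-dependent remodellers and their partners (ISWI, CHD and INO80 families, and Hells, Atrx, Smarcad1 and Ercc6), 7 rose, 17 fell and 3 did not pass from freshly isolated to proliferating cells, beside 37.6% and 35.7% of all genes. Their median log2 change was -0.76. Into myotubes 3 rose, 18 fell and 6 did not pass (median -0.6), beside 28.6% and 25.5%, and from freshly isolated cells to myotubes 5 rose, 20 fell and 2 did not pass (median -1.28), beside 40.2% and 37.3%. Hells, a remodeller linked to DNA methylation in dividing cells, rose 16.6-fold, from 134 to 281 to between 2850 and 3382, and fell 5.19-fold into myotubes. Ruvbl2, an ATPase of the INO80 family, rose 4.9-fold and fell 2.2-fold. Like Smarca2, Smarca1 and Cecr2 were high in freshly isolated cells: Smarca1, an ISWI ATPase, fell 11-fold, and Cecr2, a partner of ISWI ATPases, fell 10.9-fold. Chd5 and Baz2b fell 6.4-fold and 3.5-fold at that step. Chd3, of the CHD family, rose at both steps, 2.2-fold and 2.07-fold. Ep400, Chd1, Baz1b and Chd1l fell 2.28-, 1.99-, 2.36- and 1.99-fold into myotubes. Against freshly isolated cells, myotubes were 4.15-fold lower in Ep400 and 3.95-fold lower in Chd1.

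Among 19 genes for proteins known to work with SWI/SNF in myogenesis, 13 rose, 4 fell and 2 did not pass from freshly isolated to proliferating cells (median log2 change 0.9), beside 37.6% and 35.7% of all genes. Into myotubes 5 rose, 8 fell and 6 did not pass (median -0.11), and from freshly isolated cells to myotubes 9 rose, 5 fell and 5 did not pass (median 0.3). The shares of all genes that rose and fell were 28.6% and 25.5% in the first of these comparisons and 40.2% and 37.3% in the second. Myod1, the partner of BAF60C, was at 4938 to 6876, 20690 to 21446 and 6858 to 7315. It rose 3.69-fold (log2 change 1.88 ± 0.11, adjusted p = 2.16e-07) and fell 3-fold (-1.59 ± 0.11, adjusted p = 3.17e-06). Smarcd3 did not pass at the second step, and the difference between the 2 genes was not tested. Tcf3, whose E proteins pair with MyoD, rose 3.18-fold and fell 2.92-fold. Mef2c, a muscle transcription factor, was at 9 to 21 in freshly isolated libraries, at 33, 297 and 196 in proliferating ones, and at 26333 to 32818 in myotubes. The rise of Mef2c into myotubes was 7.88 ± 0.66 on the log2 scale (adjusted p = 6.79e-06), and 6.93 without proliferating replicate 1, the library low in muscle genes, or 8.5 without replicate 2. Into proliferation Mef2c changed by 2.92 (adjusted p = 0.00247), by 3.86 without that replicate 1 and by 2.3 without replicate 2. Mef2d took another course, at 4763 to 5556, 2309 to 2998 and 2773 to 3139 in the 3 stages. Mef2a rose 2.9-fold and then 1.73-fold; the second step lost its call under 5 of 20 alternatives, without proliferating replicate 1 (0.52, adjusted p = 0.071), without myotube replicate 2 or 3, with equal totals and with quantile normalization (adjusted p up to 0.131).

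The arginine methyltransferase genes Prmt5 and Carm1, whose enzymes act with BRG1 at muscle genes, rose 3.55-fold and 1.87-fold into proliferation. Carm1 then fell 3.1-fold into myotubes and Prmt5 1.48-fold. Map2k3, a kinase upstream of p38, which phosphorylates BAF60C, fell 3.5-fold at that step, from 2100 to 2765 to between 639 and 677. The calcineurin genes Ppp3cb and Ppp3r1 rose 2.83-fold and 2.42-fold into proliferation. Ppp3ca, also a calcineurin gene, was lower there, at 1411 to 1638 against 2081 to 2482 in freshly isolated libraries. Csnk2a1 and Csnk2a2, for the catalytic subunits of casein kinase 2, rose 1.78-fold and 1.63-fold. They then parted: Csnk2a1 rose a further 1.69-fold into myotubes and Csnk2a2 fell 1.74-fold.

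**Figure D5:**
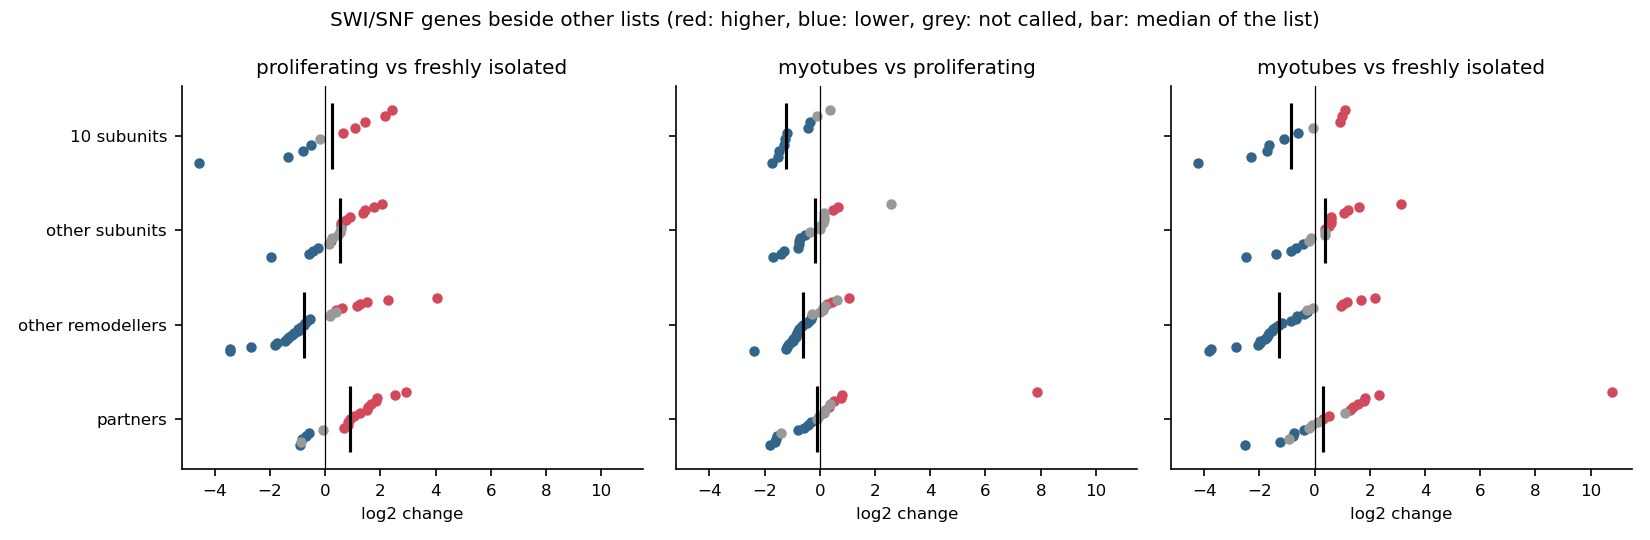
Log2 change (x axes) of each tested gene of 4 lists in the 3 comparisons; red is higher, blue lower and grey not called, and the black bar is the median of the list. The median of the 10 subunit genes is 0.23, -1.22 and -0.86 from left to right, and that of the other remodellers -0.76, -0.6 and -1.28.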

How the data were processed

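Libraries were made from 100 ng of total RNA after depletion of ribosomal RNA with RiboGone, using the SMARTer Stranded Total RNA kit, per the labels' protocols. The submitters' processing notes name STAR 2.4.0a, featureCounts 1.4.5-p1 and the build mm10 (GRCm38). The deposited table holds score values: read counts per gene, which the authors scaled and then rounded to whole numbers. The scaling tool, the strand setting and the annotation release are not given in the sources used here. By elimination, the remaining columns were taken as the freshly isolated stage.

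The 17291 genes that reached 10 in 3 or more libraries were tested on log2(value + 1), in 1 limma fit of all 9 libraries with a trend of variance on mean. The threshold was 0.05 on p adjusted by Benjamini-Hochberg across those genes, and folds are on that log2 scale. Scaled values do not suit count models, so none was fitted. Samples of a stage came from different animals, per the labels, and each pair of replicates varied at least 3.53 times as much as counting noise.

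Lengths, positions and overlaps come from GENCODE vM21 and promoters from RefSeq. The members, the lists of genes and the tests were chosen with earlier results of these data known. From the lists of other subunits, remodellers and partners, the text names by rule up to 6 genes per comparison. These are the genes with the largest called change and a mean of at least 100. The rule always names Smarce1, Actl6a, Pbrm1, Arid2, Brd7 and Brd9. Actl6b, Mef2d and Ppp3ca were chosen after their values were seen. The symbols Bicra and Bicral were not matched, while the older symbols Gltscr1 and Gltscr1l of these genes were matched and counted. Srcap, with 2 rows, was left out. R 4.3.3, limma 3.58.1, Python 3.11.15, pandas 2.3.3, numpy 2.4.6 and matplotlib 3.10.9 were used.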

Additional observations from a re-analysis of the deposited data

How the results depend on the processing

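Of the 30 log2 changes of the 10 genes, 26 kept their direction and their side of the threshold under all 20 alternatives (pseudocounts, filters, scalings, smaller fits, the replicate block and each library left out). Not all alternatives could change a direction. Fits of only the stages compared, without the trend or with the replicate block keep each log2 change and bear only on its spread. Leaving out a library of the stage not compared does the same. Rescaling by median of ratios used factors of 1.005 to 1.011, so it changed little. The changes that were not kept are as follows. Smarcc2 between freshly isolated and proliferating cells was -0.18 and called with a pseudocount of 0.5 and with the stricter filter, 0.04 with equal totals and 0.01 with quantile normalization, and from -0.22 to -0.15 with 1 library left out, called without freshly isolated replicate 2 (-0.22). Smarcd1 in that comparison lost its call with quantile normalization (0.31). Smarca2 from proliferating cells to myotubes was called with only those stages in the fit (0.36) and without both libraries that stood apart (0.42), and ranged from 0.26 to 0.43 with 1 library left out; the count of genes that rose was then 1 and not 0, in both of these settings, and 0 to 1 with 1 library left out. Smarca4 between myotubes and freshly isolated cells was 0.04 with quantile normalization, 0.13 without both libraries, and from -0.13 to 0.13 with 1 left out. Of the 102 changes of the other genes named by rule, 78 were kept under all alternatives. Those that turned in sign were not called in the first place: with equal totals, Smarce1 (-0.13), Brd9 (-0.12) and Baz2b (-0.15) between proliferating cells and myotubes; with quantile normalization, Tcf3 (-0.06) between freshly isolated cells and myotubes; and Csnk2a2 in that comparison, from -0.25 to 0.01 with 1 library left out. The count of other subunits that fell into proliferation, 4 in the main fit, was 1 with equal totals and 2 without proliferating replicate 3. With the replicate block 9 of them rose and 3 fell into proliferation, beside 10 and 4 without it. From freshly isolated cells to myotubes 10 rose with the block, beside 9 without it. Equal totals without Gm26917 moved the median of all genes by 0.213 into proliferation and by -0.258 into myotubes. Quantile normalization moved it by -0.143 into myotubes. The cause of these changes was not tested.

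Same-numbered libraries of different stages did not deviate together (correlations from -0.034 to 0.027). The labels do not tie the numbers across stages, and low correlations cannot exclude that samples were paired, so pairing is not known. With the replicate block 6446 genes rose and 6117 fell into proliferation, 4843 and 4245 into myotubes, and 6916 and 6395 from freshly isolated cells to myotubes; of the 10 genes 5 and 4, 0 and 8, and 3 and 6 were called, as without it.

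Shares moved with the length used, and the order of the stages did not. In freshly isolated cells, proliferating cells and myotubes, the Smarca2 share was 68.07%, 3.22% and 10.64% per length of the longest coding transcript, 66.67%, 3.02% and 10.05% per coding length, and 66.44%, 3% and 9.96% with no length. For Smarcc2 these were 68.84%, 26.83% and 39.97%, then 61.41%, 20.87% and 32.39%, then 63.6%, 22.47% and 34.48%. For Smarcd3 they were 35.29%, 57.32% and 76.6%, then 26.75%, 46.28% and 68.14%, then 25.08%, 44.23% and 66.25%. For Arid1b they were 31.53%, 24.09% and 41.95%, then 38.81%, 30.42% and 49.87%, then 38.91%, 30.51% and 49.97%. The planned coding length of the RefSeq protein was not run, and the GENCODE coding length used in its place was chosen after seeing the data.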
